A study of Homo sapiens with 6 samples.

Results

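The Hippo pathway and the genes driven by its effectors YAP and TAZ were followed as 36 genes, taken by symbol from a fixed list, among the 60664 genes of an RNA-seq count table made from the human ovarian carcinoma line SKOV3. The libraries came from 3 cultures in which JUP (plakoglobin, a protein of desmosomes and adherens junctions) was knocked down with a short hairpin RNA (shJUP 1 to 3) and from 3 cultures with a control hairpin (shNC 1 to 3), whose genotype is labelled wild type. Both groups are SKOV3 cells carrying a hairpin, and how many hairpin sequences or clones were used is not given in the sources used here. Each symbol matched exactly 1 Ensembl ID. The list holds 7 core kinases and adaptors, 2 upstream activators, 4 junction and scaffold proteins, the coactivators YAP1 and WWTR1 (which encodes TAZ), 4 TEAD factors with their antagonist VGLL4, and 16 target genes. It covers 19 of the 22 genes of a published signature of YAP/TAZ activity.

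In the Hippo pathway the kinases MST1 and MST2 (STK4 and STK3), with the adaptor SAV1, activate LATS1 and LATS2, which act with MOB1A or MOB1B. LATS kinases phosphorylate YAP and TAZ, which are then held in the cytoplasm or degraded. Without that phosphorylation YAP and TAZ enter the nucleus, bind TEAD factors and raise transcription of genes such as CCN1, CCN2 and ANKRD1. Cell-cell junctions, cell density and tension on the cytoskeleton feed into this pathway, largely through the phosphorylation and location of its proteins, which were not measured here.

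Library totals ranged from 17456121 to 19279514 estimated counts. Levels are given as CPM, counts scaled to the library total after TMM adjustment between libraries. For JUP, the shJUP libraries 1 to 3 held 39.9, 93.6 and 24.6 CPM, and the shNC libraries 104, 133 and 101 CPM. JUP was thus below every control in each shJUP library, but in shJUP 2 only just. By edgeR the log2 fold change was -1.10 (SE 0.44), short of the threshold at an adjusted p of 0.47. DESeq2 gave an adjusted p of 0.18, or 0.048 with the library number as a block (log2 -1.30), and called JUP in 1 of 6 fits with a library left out, with adjusted p up to 0.82. By edgeR with that block the adjusted p of JUP was 0.12. Results are also given without both number-2 libraries. That setting was chosen with the high JUP level of shJUP 2 known, so for JUP itself its log2 value of -1.66 is a description only. In such bulk samples fewer cells expressing a gene and less RNA per cell cannot be told apart. Of 10 markers of an epithelial ovarian carcinoma line 7 reached 1 CPM in at least 1 library, among them ERBB2 (2320 to 6910 CPM), KRT8 and PAX8, whereas MUC16, MSLN and WFDC2 stayed under 1 CPM. Fibroblast markers summed to 12.9 to 270 CPM in shJUP and 45.2 to 503 CPM in shNC, and their part in the results below was not tested. Leukocyte markers other than CD68 stayed under 1 CPM in every library.

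TEAD factors recognise the letters GGAATG, which read CATTCC on the other strand. RefSeq promoter windows (GRCh38.p14, 250 bases before to 50 bases after the start site) were matched for 27 of the 36 members, and not for ARHGEF17, ASAP1, CCN1, CRIM1, DOCK5, GADD45A, STK3, TEAD1 and TEAD4. Of the 27 matched members 9 (33.3%) held these letters in any window, against 16.7% of all genes with a window. Of the 10 matched target genes 4 held them. No test was made of these shares. NUAK2, whose window is not shown, held 2 matches. The windows of ANKRD1 (chr10:90921038-90921337, minus strand), CCN2 (chr6:131951323-131951622, minus strand) and YAP1 (chr11:102110197-102110496, plus strand) are shown as examples. Of these genes CCN2 was called in no fit below. Capitals mark each GGAATG or CATTCC.
ANKRD1: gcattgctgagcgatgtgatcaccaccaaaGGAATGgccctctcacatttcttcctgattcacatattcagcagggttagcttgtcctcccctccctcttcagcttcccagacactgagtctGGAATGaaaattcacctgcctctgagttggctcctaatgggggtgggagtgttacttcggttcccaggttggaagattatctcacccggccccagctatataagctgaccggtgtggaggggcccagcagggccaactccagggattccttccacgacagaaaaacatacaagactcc
CCN2: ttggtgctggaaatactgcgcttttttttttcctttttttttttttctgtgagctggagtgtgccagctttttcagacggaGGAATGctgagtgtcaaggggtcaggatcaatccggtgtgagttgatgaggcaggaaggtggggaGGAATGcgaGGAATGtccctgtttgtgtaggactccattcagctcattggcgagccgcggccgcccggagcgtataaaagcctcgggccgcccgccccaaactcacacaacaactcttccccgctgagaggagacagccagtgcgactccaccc
YAP1: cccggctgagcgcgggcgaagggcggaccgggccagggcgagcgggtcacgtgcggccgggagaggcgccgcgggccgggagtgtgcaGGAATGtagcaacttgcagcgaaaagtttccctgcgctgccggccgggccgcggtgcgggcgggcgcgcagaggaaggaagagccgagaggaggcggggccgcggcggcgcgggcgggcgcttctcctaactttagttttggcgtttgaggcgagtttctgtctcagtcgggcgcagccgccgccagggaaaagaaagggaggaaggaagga
The CCN2 window held 3 matches, which 0.128% of all 35116 promoter windows reach. The ANKRD1 window held 2, a number reached by 1.37% of all windows. It also held 1 match to TGANTCA, a loose form of the letters bound by AP-1, with any base at N and here T. This match overlapped neither GGAATG match. Of all windows 7.71% hold TGANTCA, which reads the same on both strands. The YAP1 window held 1 match, as 14% of windows do at least. These are matches of letters and not measured binding.

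**Figure D1:**
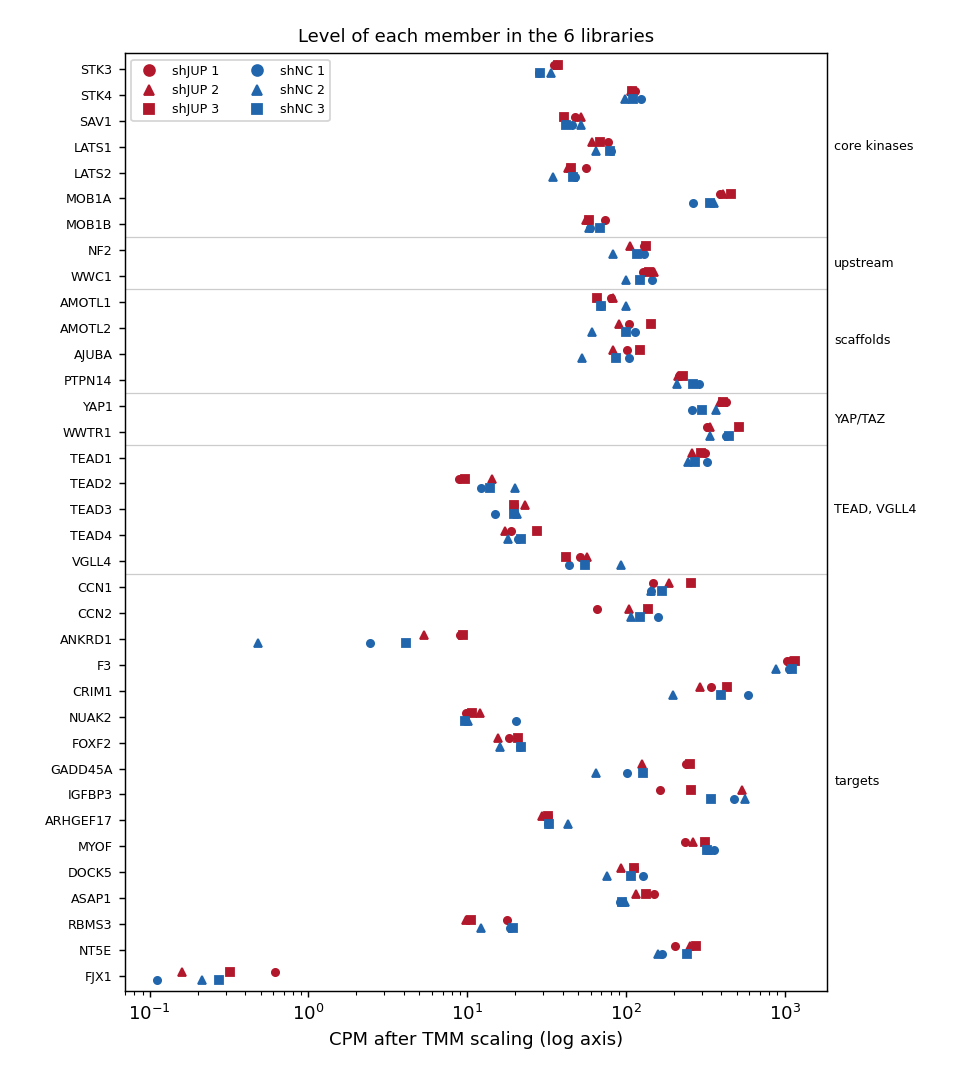
Level of each of the 36 members in the 6 libraries, as CPM after TMM scaling on a log axis, by role; colours stand for the group and shapes for the library number. F3 was the highest member in CPM, at 885 CPM or more in every library, and FJX1 the lowest, under 1 CPM throughout.

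Of the 36 members 35 passed the filter on low counts and were tested in the fit over 15867 genes. The edgeR quasi-likelihood test called none of them higher or lower after Benjamini-Hochberg adjustment, and 0% of all tested genes. At an unadjusted edgeR p under 0.05 it held 6 members (ANKRD1, GADD45A, ASAP1, YAP1, MOB1A and MYOF), against 10% of all genes. DESeq2 called 1 member, GADD45A, higher and 0 lower, beside 0.664% and 0.524% of the genes it tested (1.19% in all). By limma-voom 0 members were called, and 0 genes over all tested genes. When genes with low counts were removed first, DESeq2 called GADD45A and ASAP1 higher, beside 0.782% higher, 0.679% lower and 1.46% of genes in all. With the library number as a block DESeq2 called 4 members higher (GADD45A, ANKRD1, ASAP1 and MOB1A) and 0 lower, beside 2.35% and 2.91% of genes (5.25% in all), while edgeR with the block called 0 members and 0.0063% of genes, all of them lower. Without both number-2 libraries DESeq2 called 4 higher (GADD45A, ANKRD1, ASAP1 and YAP1) and 1 lower (IGFBP3), beside 2.08% and 2.43% of genes (4.51% in all), and edgeR called 0 members, beside 0.119% of genes higher, 0.189% lower and 0.308% in all. Of the 35 members 20 lay above 0 and 15 below, with a median log2 fold change of 0.03 (0.13 without shNC 1), where all tested genes had a median of -0.01 and 48.6% above 0. The median size of the change, regardless of sign, was 0.21 for the members and 0.19 for all tested genes.

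The groups did not overlap for 7 members. In 5 (STK3, MOB1A, YAP1, ANKRD1 and ASAP1) every shJUP library lay above every control, and in 2 (ARHGEF17 and MYOF) below, beside 8.39% and 8.65% of all tested genes (17% in all). The 95% intervals of 28 members lay within a 2-fold change in either direction, so for these a larger average change falls outside the interval. These intervals are not adjusted for the number of members.

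**Figure D2:**
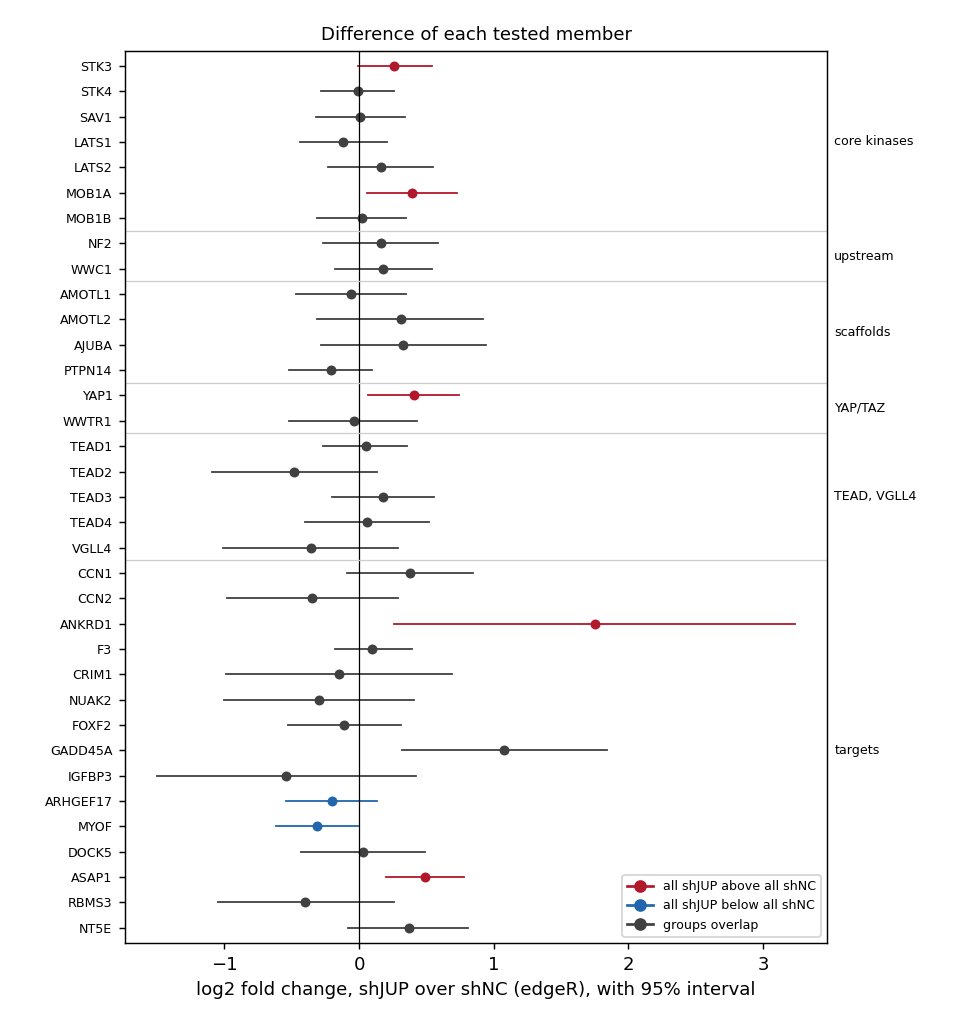
Log2 fold change of the 35 tested members, shJUP over shNC, from the edgeR fit, with its 95% interval; red and blue mark members whose groups do not overlap. The intervals of ANKRD1, GADD45A, ASAP1, YAP1, MOB1A and MYOF exclude 0, and no member passed the adjusted threshold.

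Among the core kinases and adaptors the median log2 fold change was 0.02, with 5 of 7 above 0, and MOB1A and STK3 were the only ones whose groups did not overlap. MOB1A, the adaptor that LATS kinases need for full activity, was at 392, 409 and 462 CPM in shJUP 1 to 3 and at 264, 359 and 339 CPM in shNC 1 to 3. All shJUP libraries lay above all controls, with the smallest gap at number 2. The log2 fold change was 0.39 (SE 0.14, edgeR adjusted p = 0.45), and DESeq2 called it only with the block (adjusted p = 0.024, against 0.32 without it). By edgeR with the block the adjusted p was 0.15. MOB1B, its close relative whose reads can be mistaken for those of MOB1A, was at 63 ± 9.9 against 62.2 ± 5.6 CPM (SD, n = 3 each). MOB1B also shares 2.26% of its exon bases (GENCODE release 29) with DCK on the same strand, whose counts came to 97.1% of those of MOB1B. STK3 was at 35, 37 and 37.1 CPM in shJUP and at 28.4, 33.8 and 28.7 CPM in shNC, groups that do not overlap (log2 0.26, SE 0.12, edgeR adjusted p = 0.52). STK4 was at 110 ± 3.8 against 111 ± 13 CPM and SAV1, the scaffold of the MST kinases, at 47 ± 6.1 against 46.6 ± 5.2 CPM. Exons of ATL1, with 12% of the counts of SAV1, lie opposite 14.9% of the exon bases of SAV1.

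LATS1 and LATS2, the kinases that act directly on YAP and TAZ, leaned in opposite directions within their spread. LATS1 was at 77.6, 60.9 and 69.1 CPM in shJUP and at 80.5, 64.4 and 79.9 CPM in shNC (log2 -0.12, 95% interval -0.44 to 0.21). LATS2, which is also a YAP/TAZ target, was at 56, 42.9 and 45.2 CPM in shJUP and at 47.8, 34.8 and 46.5 CPM in shNC (log2 0.16, interval -0.23 to 0.55). In both genes the number-2 library was the lowest of its group. The upstream activator NF2 (merlin) was at 131, 106 and 133 CPM in shJUP and at 131, 83.3 and 117 CPM in shNC (log2 0.16, SE 0.18), and WWC1 (KIBRA), a scaffold for LATS, was at 140 ± 11 against 123 ± 23 CPM.

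The 4 junction and scaffold members include AMOTL1, AMOTL2 and AJUBA, which link YAP or LATS to junctions and actin, and the phosphatase PTPN14, which binds YAP. AMOTL2 was at 113 ± 29 against 91.6 ± 27 CPM and AJUBA at 102 ± 20 against 81.4 ± 27 CPM, each with shNC 2 as the lowest library (61.3 and 52.6 CPM). AMOTL1 was at 76.7 ± 9.7 against 79.9 ± 17 CPM, with shNC 2 as the highest library (100 CPM). PTPN14 was at 220 ± 8.9 against 254 ± 39 CPM (log2 -0.21, SE 0.13). None of the 4 was called in any fit, and their groups overlap.

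The levels of YAP1 separated the groups and those of WWTR1 did not. YAP1 was at 430, 389 and 411 CPM in shJUP 1 to 3 and at 260, 369 and 300 CPM in shNC 1 to 3. The groups came closest between shNC 2, the highest control, and shJUP 2, the lowest shJUP library. The fold was 1.32 (log2 0.41, SE 0.14, 95% interval 0.07 to 0.74), and the adjusted p was 0.45 in edgeR and 0.29 in DESeq2. Without both number-2 libraries the log2 value was 0.60 and the adjusted p 0.097 in edgeR and 0.0012 in DESeq2. DESeq2 also called YAP1 without shNC 2 alone (adjusted p = 0.004).

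WWTR1 was at 324, 341 and 513 CPM in shJUP and at 427, 337 and 449 CPM in shNC (log2 -0.04, interval -0.52 to 0.43). Its shJUP 3 value was the highest and its shJUP 1 value the lowest of the 6, so the spread within shJUP covers all controls. Per kilobase of exon, the scale on which genes can be compared, YAP1 and WWTR1 stood at nearly the same level in the controls, at 49.1 ± 8.8 and 48.1 ± 7.1 CPM per kb (SD, n = 3), which do not differ beyond their spread.

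TEAD1 was the most abundant TEAD factor per length, at 27.4 ± 3.7 CPM per kb in the controls, followed by TEAD4 (8.95 ± 0.83), TEAD3 (6.03 ± 0.98) and TEAD2 (5.16 ± 1.4 CPM per kb). TEAD3 and TEAD2 do not differ beyond their spread. In CPM, TEAD1 was at 314, 260 and 297 in shJUP and at 323, 248 and 273 in shNC, with no separation of the groups (log2 0.05, interval -0.27 to 0.36). TEAD2 was at 8.93, 14.4 and 9.72 CPM in shJUP and at 12.2, 20 and 14 CPM in shNC. It was lower in shJUP against the control of each number, with ratios of 0.734, 0.721 and 0.692 (log2 -0.48, SE 0.26, edgeR adjusted p = 0.58). Its groups overlap because shJUP 2 lay above shNC 1 and shNC 3.

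TEAD3 was at 19.8, 23.1 and 19.6 CPM in shJUP and at 15, 20.5 and 19.6 CPM in shNC. TEAD4 was at 18.8, 17.3 and 27.5 CPM in shJUP and at 20.9, 18.2 and 21.9 CPM in shNC. In both the groups overlap. VGLL4, which competes with YAP and TAZ for TEAD, was at 50.1 ± 7.6 against 64.1 ± 26 CPM, and its log2 value of -0.36 rested on shNC 2 (93.7 CPM), being 0.02 without that library. Exons of ATG7 lie opposite 22.1% of the exon bases of VGLL4, and those of CD37 opposite 10.7% of TEAD2 (GENCODE release 29), so without a stated strand setting reads of these pairs, like those of SAV1 and ATL1, cannot be told apart.

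The target genes went both ways, with 7 of the 15 tested above 0 and 8 below and a median log2 fold change of -0.11, which became 0.14 without shNC 1. This count leaves out AMOTL2, LATS2 and PTPN14 (log2 0.31, 0.16 and -0.21), which the published signature also holds but which are listed under other roles. ANKRD1, an ankyrin repeat protein widely used as a readout of YAP/TAZ, was at 8.98, 5.33 and 9.4 CPM in shJUP 1 to 3 and at 2.43, 0.478 and 4.14 CPM in shNC 1 to 3. Every shJUP library lay above every control, and the counts behind these values were 161, 100, 177, 44, 9 and 76. The fold was 3.36 (log2 1.75, SE 0.64, edgeR adjusted p = 0.45), and DESeq2 gave an adjusted p of 0.12. With the block the adjusted p was 0.12 in edgeR and 7.4e-04 in DESeq2. With 1 library left out the edgeR log2 value of ANKRD1 was lowest without shNC 2 and highest, at 2.44, without shNC 3. Of the 6 DESeq2 fits with 1 library left out, only that without shNC 3 called ANKRD1 (adjusted p = 0.019). The ratio to the control of the same number ranged from 2.27 at number 3 to 11.2 at number 2, where the control held 9 counts.

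GADD45A, a growth arrest and DNA damage gene, was at 240, 127 and 255 CPM in shJUP and at 101, 65.1 and 128 CPM in shNC. The groups overlap, since shJUP 2 lay just under shNC 3, but within each number the ratio was about the same (2.38, 1.95 and 1.99). Its fold was 2.11 (log2 1.08, SE 0.32). The adjusted p was 0.41 in edgeR and 0.047 in DESeq2. With the block it was 0.062 in edgeR and 1.2e-14 in DESeq2. The unblocked DESeq2 call was lost without shJUP 1 (adjusted p = 0.40), shJUP 3 (0.54), shNC 1 (0.28) or shNC 2 (0.098).

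ASAP1, an Arf GTPase-activating protein of focal adhesions, was at 151, 116 and 133 CPM in shJUP and at 91.3, 98.1 and 94.6 CPM in shNC. The controls were tight and all shJUP libraries lay above them (log2 0.49, SE 0.12, 95% interval 0.20 to 0.78, edgeR adjusted p = 0.39). DESeq2 gave an adjusted p of 0.067, or 0.044 when genes with low counts were removed beforehand, and 0.018 with the block. By edgeR with the block it was 0.14. Of the DESeq2 fits with 1 library left out, that without shJUP 2 called it (adjusted p = 0.0033).

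CCN1 and CCN2 encode secreted matricellular proteins and are the most used YAP/TAZ targets, and their mean differences had opposite signs. CCN1 was at 149, 187 and 258 CPM in shJUP and at 143, 144 and 168 CPM in shNC (log2 0.38, SE 0.20, edgeR adjusted p = 0.56). The shJUP value was above the control of the same number in all 3 numbers, but shJUP 1 lay within the range of the controls. CCN2 was at 65.9, 105 and 137 CPM in shJUP and at 160, 107 and 123 CPM in shNC (log2 -0.35, SE 0.27, edgeR adjusted p = 0.68). The ratio within number 1 was 0.411, with ratios of 0.98 and 1.11 at numbers 2 and 3. CCN2, whose window holds 3 copies of GGAATG, and ANKRD1, whose window holds 2, thus lay on opposite sides of 0, and the difference between them was not tested.

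**Figure D3:**
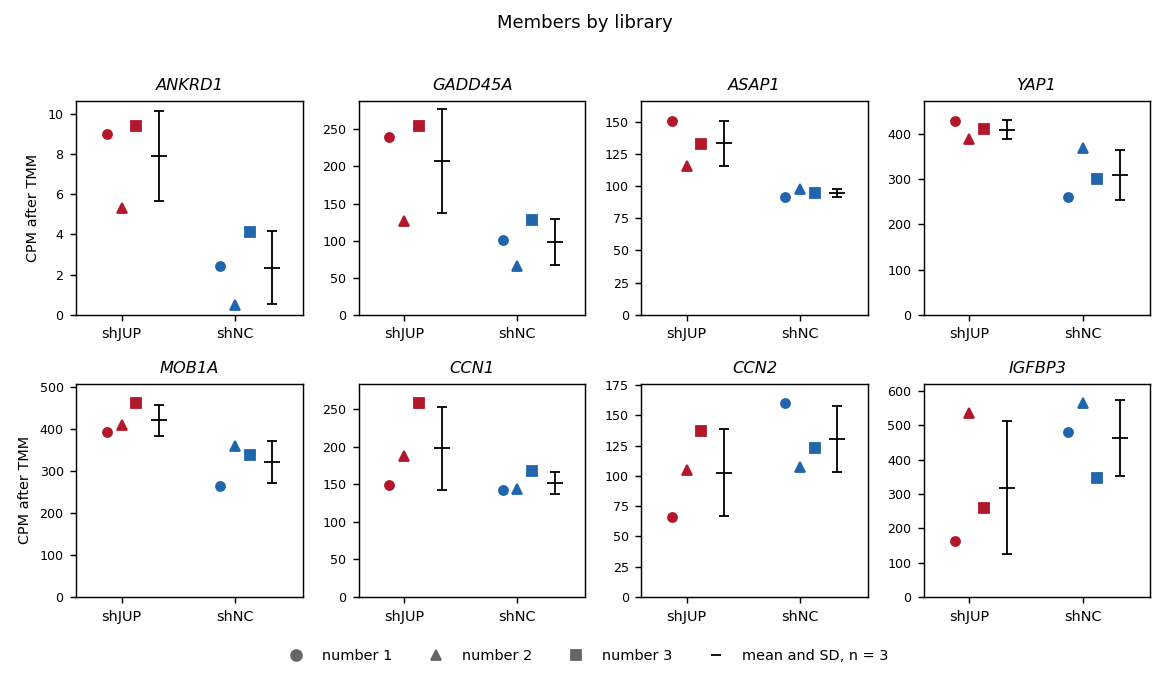
CPM after TMM scaling in each library for 8 members, with shapes for the library number and black bars for mean and SD (n = 3). ANKRD1, ASAP1, YAP1 and MOB1A show no overlap between the groups, whereas GADD45A, CCN1, CCN2 and IGFBP3 overlap.

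MYOF (myoferlin, a membrane repair protein) was at 237, 265 and 316 CPM in shJUP and at 358, 336 and 323 CPM in shNC, all lower than the controls (log2 -0.31, SE 0.13, edgeR adjusted p = 0.48). ARHGEF17, a guanine nucleotide exchange factor, was at 32.2, 29.4 and 32.2 CPM in shJUP and at 32.4, 42.9 and 32.7 CPM in shNC. Its groups are apart by less than 1 CPM and its log2 value of -0.20 was -0.01 without the number-2 libraries. IGFBP3, a secreted binding protein of insulin-like growth factors, was at 163, 536 and 258 CPM in shJUP and at 481, 565 and 346 CPM in shNC. The number-2 libraries were alike and high, and numbers 1 and 3 gave ratios of 0.338 and 0.746. Its log2 value was -0.54 (SE 0.41) over all libraries and -0.97 without number 2, where DESeq2 called it lower (adjusted p = 0.0012, against 0.15 by edgeR), as it also did without shJUP 2 alone (log2 -1.14 in edgeR, DESeq2 adjusted p = 0.0047).

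The remaining tested targets were called in no fit. F3 (tissue factor), which starts blood coagulation, was the most abundant target per length, at 354 ± 42 CPM per kb in the controls, and differed little between groups (log2 0.10, interval -0.18 to 0.39). NT5E (CD73), an enzyme that makes adenosine, was at 245 ± 36 against 190 ± 45 CPM and above its control in each number. CRIM1, a membrane protein that binds bone morphogenetic proteins, was at 357 ± 70 against 395 ± 200 CPM, the wide control spread running from 199 CPM in shNC 2 to 590 CPM in shNC 1. NUAK2 (a kinase), FOXF2 (a transcription factor), DOCK5 (a Rac exchange factor) and RBMS3 (an RNA-binding protein) had log2 values between -0.40 and 0.03. FJX1 had 2 to 11 counts per library (0.364 ± 0.23 against 0.198 ± 0.082 CPM), did not pass the filter, and a difference was not detectable at this depth.

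Against the control of the same number, 8 members were higher in all 3 numbers (STK3, MOB1A, YAP1, CCN1, ANKRD1, GADD45A, ASAP1 and NT5E), 7 were lower in all 3 (LATS1, TEAD2, FOXF2, IGFBP3, ARHGEF17, MYOF and RBMS3), and 20 were mixed. The same shares over all tested genes were not counted, so whether these numbers are unusual cannot be read from them. The number-2 control was the lowest control for 21 of the 35 tested members (60%), where it was lowest for 42.6% of all tested genes. Likewise shJUP 2 was the lowest shJUP library for 19 members (54.3%, against 37.5% of all genes) and shJUP 3, the library with the least JUP, the highest for 17 (48.6%, against 30.7%). Among the 15 tested targets shJUP 3 was the highest of its group for 9 and the lowest for 0. These shares are descriptions and their link to the level of JUP was not tested.

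**Figure D4:**
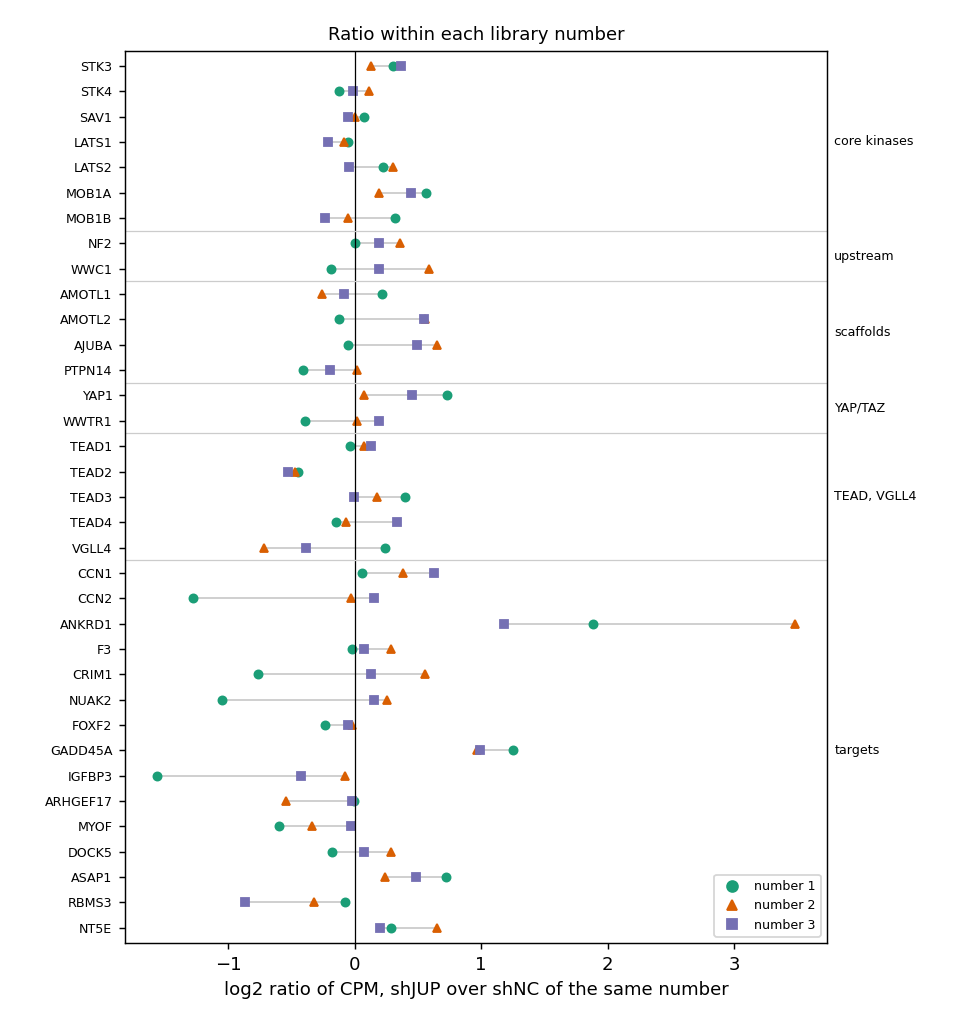
Log2 ratio of CPM between shJUP and shNC libraries of the same number for the 35 tested members. GADD45A lies near the same ratio in all 3 numbers, ANKRD1 is above 0 in all 3 with its highest ratio at number 2, and CCN2, NUAK2 and IGFBP3 have their lowest ratio at number 1.

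Pathway genes outside the 36 were read from the same fit. Of 29 tested upstream regulators edgeR called 0, and DESeq2 called 1 higher (RASSF1) and 1 lower (WWC3), without and with the block, settings that called 1.19% and 5.25% of all genes. Without both number-2 libraries DESeq2 called RASSF1 (adjusted p = 0.0039) and no longer WWC3 (0.074), beside 4.51% of all genes. RASSF1, a scaffold that binds the MST kinases, was at 26.2, 17.9 and 29 CPM in shJUP and at 11.2, 10.6 and 16.3 CPM in shNC (log2 0.94, SE 0.24, DESeq2 adjusted p = 0.041). WWC3, a relative of KIBRA, was at 19.3, 17.6 and 13.5 CPM in shJUP and at 25.3, 31 and 28.6 CPM in shNC (log2 -0.75, SE 0.17, DESeq2 adjusted p = 0.025). In both genes the groups do not overlap, but with 1 library left out the DESeq2 call held in 2 of 6 fits for each, with adjusted p up to 0.51 for RASSF1 and 0.22 for WWC3. TAOK3, a kinase that can activate the MST kinases, was at 54.6 ± 6 against 42.4 ± 4.9 CPM and was not called.

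The 15 genes of the STRIPAK phosphatase complex and its partners, which switch the MST kinases off, held no call by edgeR or DESeq2, and 0 had an unadjusted edgeR p under 0.05. Their log2 values ran from -0.22 to 0.58 with a median of 0.06, and STRN (146 ± 6.3 against 130 ± 0.14 CPM), SIKE1 (82.3 ± 6.3 against 95.5 ± 10 CPM) and PPP2CB (215 ± 8.7 against 191 ± 17 CPM) had the smallest p-values. Of the other VGLL cofactors of TEAD, VGLL1 to VGLL3, only VGLL3 was tested (24.8 ± 5.5 against 24.3 ± 4.4 CPM). VGLL1 had 0 counts in every library.

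Of 22 tested YAP/TAZ targets outside the 36, edgeR called 0, DESeq2 called 2 higher and 1 lower, beside 1.19% of all genes, and DESeq2 with the block 6 higher and 1 lower, beside 5.25%. Without both number-2 libraries DESeq2 called 6 higher and 3 lower, beside 4.51% of all genes. The 6 higher were AXL, HBEGF, AREG (adjusted p = 6.6e-04), BIRC5 (0.0032), CDC6 (0.0068) and ANLN (0.042). AREG, BIRC5, CDC6 and ANLN are named after their values were seen. Over all libraries DESeq2 without the block called none of them (adjusted p = 0.057, 0.05, 0.57 and 0.48). With the block it called each of them (adjusted p = 0.0026, 0.0035, 0.0034 and 0.0041), beside 5.25% of all genes. By edgeR with the block the adjusted p was 0.12, 0.12, 0.11 and 0.15. When genes with low counts were removed first, DESeq2 without the block also called BIRC5 (adjusted p = 0.031), beside 1.46% of all genes. The 3 lower were TGFBI, THBS1 (adjusted p = 1.9e-05) and FSTL1 (0.021), of which THBS1 and FSTL1 are named after their values were seen. At number 2 THBS1 went the other way, at 880 CPM in shJUP against 282 CPM in shNC. Over all libraries the DESeq2 adjusted p without the block was 0.93 for THBS1 and 0.53 for FSTL1. The log2 value of THBS1 in edgeR with the block was -0.01. AXL, a receptor tyrosine kinase, was at 422, 321 and 584 CPM in shJUP and at 204, 116 and 196 CPM in shNC (log2 1.36, SE 0.28, DESeq2 adjusted p = 5.4e-04). HBEGF, a ligand of the EGF receptor, was at 26.2, 16.3 and 26.9 CPM in shJUP and at 8.95, 8.29 and 10.1 CPM in shNC (log2 1.34, SE 0.22, DESeq2 adjusted p = 6.4e-05). TGFBI, a secreted matrix protein, was at 288, 385 and 302 CPM in shJUP and at 693, 678 and 534 CPM in shNC (log2 -0.97, SE 0.16, DESeq2 adjusted p = 8.0e-05). In each of these 3 genes the groups do not overlap and the DESeq2 call held with each library left out in turn. Without both number-2 libraries edgeR called AXL (adjusted p = 0.049) and HBEGF (0.042) as well, beside 0.308% of all genes. The other signature genes, TGFB2 (8.44 ± 6.2 against 8.93 ± 2.2 CPM) and CCDC80 (73.7 ± 15 against 68.9 ± 11 CPM), differed by less than the spread between replicates.

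**Figure D5:**
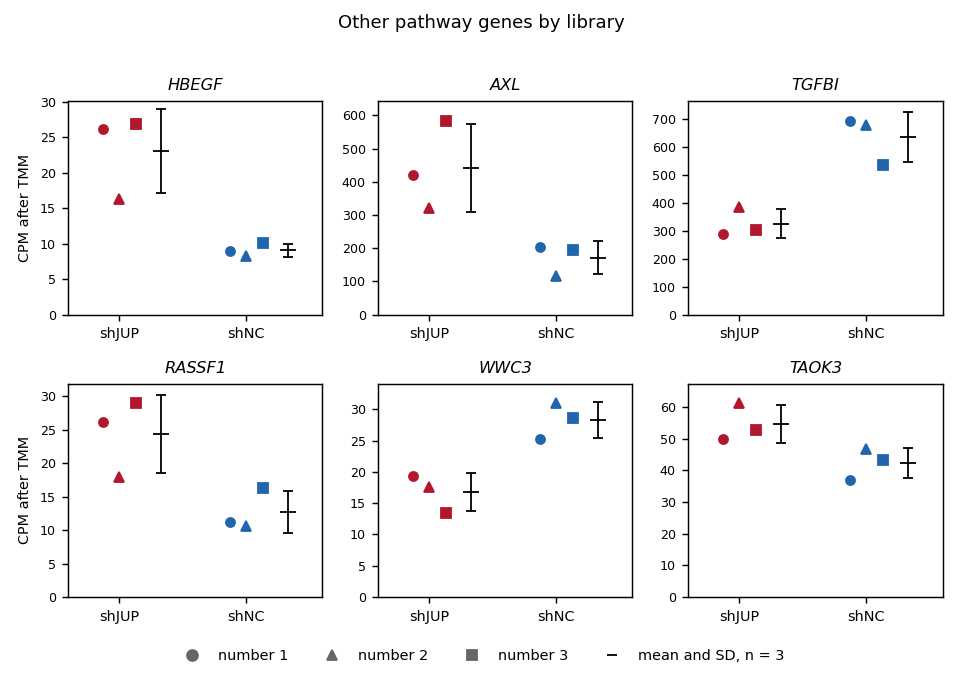
CPM after TMM scaling in each library for 6 pathway genes outside the 36, with shapes for the library number and black bars for mean and SD (n = 3). HBEGF, AXL, RASSF1 and TAOK3 lie above all controls in each shJUP library, and TGFBI and WWC3 below.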

How the data were processed

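The authors deposited estimated counts per Ensembl gene for the 6 libraries, not scaled between them, made by tools that the submitters' processing notes name without roles: edgeR 3.32.1 and DESeq2 1.26.0, STAR 2.7.9a, and RSEM 1.3.3. The sources used here give no strand setting, annotation or genome build. FPKM values from Cuffdiff, named in the labels' protocols, were not used here. Of 60695 rows, 31 with text in place of a gene ID were left out. Counts were rounded. The labels' protocols call the replicates independent biological replicates.

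The main test was edgeR 4.0.16 (filterByExpr, TMM factors 0.9781 to 1.028, quasi-likelihood, two-sided, Benjamini-Hochberg over 15867 genes, threshold 0.05) in R 4.3.3. Each SE was the size of the log2 value divided by √F. DESeq2 1.42.0 took every gene with a count, and limma-voom used limma 3.58.1. Steps were tested on simulated data. Exon lengths came from GENCODE release 29.

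Same-numbered libraries deviated together from their group means (r = 0.14, 0.51 and 0.20 for numbers 1 to 3, all over 0.1). The main fit did not pair the libraries. Numbers were treated as pairs in the fits with the block and in the ratios to the control of the same number. Of the libraries with different numbers, shJUP 3 with shNC 1 (r = 0.39) and shJUP 1 with shNC 3 (0.15) correlated more than shJUP 3 and shJUP 1 did with the control of their own number, so the pairing is weakly supported outside number 2. The block is given where it changes a call. What a number marks is not stated in the labels. The members, lists and alternatives were chosen with earlier results of these data known. All members are reported. Per further list, up to 3 genes with the smallest p are named, plus AXL, TGFB2 and CCDC80.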

Additional observations from a re-analysis of the deposited data

How the results depend on the processing

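Members called higher numbered 0 with edgeR, and 1 with DESeq2, 4 with the replicate block in DESeq2, 4 without both number-2 libraries in DESeq2, 2 with DESeq2 after filterByExpr and 4 with that filter and the block. Members called lower numbered 0, and 1 without both number-2 libraries in DESeq2. The number of genes called over all genes was 0, and 5 without a filter, 179 with DESeq2, 1 with the replicate block in edgeR, 696 with the block in DESeq2, 49 and 643 without both number-2 libraries in edgeR and DESeq2, and 200 and 692 with DESeq2 after filterByExpr without and with the block. The fits after filterByExpr and the DESeq2 fits with 1 library left out were chosen after seeing the data. JUP was at -1.30 with the block in DESeq2 (adjusted p = 0.048, and 0.047 after filterByExpr) and at -1.66 without both number-2 libraries in DESeq2, a setting chosen with the JUP levels known. With 1 library left out, over edgeR and DESeq2 together, 0 to 2 members were called higher, 0 to 1 lower and 0 to 486 genes in all (DESeq2 gave 62 without shNC 1 and 486 without shJUP 2), and JUP ranged from -1.80 to -0.75. The median over all members ranged from -0.01 to 0.13, over targets from -0.22 to 0.14, turning positive without shNC 1, and over the other members from 0.02 to 0.11.

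Of 840 values of members under alternatives 763 kept direction and side of the threshold, 22 passed it and 55, from 13 members, turned direction, none of them called. With 1 library left out these ranged, as log2 values, from -0.09 to 0.08 (STK4), -0.08 to 0.11 (SAV1), -0.11 to 0.11 (MOB1B), -0.01 to 0.30 (NF2), -0.15 to 0.14 (AMOTL1), -0.28 to 0.09 (WWTR1), -0.04 to 0.16 (TEAD1), -0.17 to 0.20 (TEAD4), -0.57 to 0.03 (VGLL4), -0.47 to 0.26 (CRIM1), -0.48 to 0.14 (NUAK2), -0.24 to 0.00 (FOXF2) and -0.15 to 0.21 (DOCK5). STK4 was at 0.02 with no scaling factor, and without both number-2 libraries AMOTL1 was at 0.08 and DOCK5 at -0.05 in edgeR and -0.06 in DESeq2. The cause was not tested.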
